A study of Homo sapiens with 9 samples.

Results

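Chemokines are small secreted proteins that attract white blood cells along a gradient, and NF-κB is among their best known activators. The 8 genes described here are CXCL8, CXCL1, CXCL5, CXCL3, CXCL2, CCL2, CCL20 and CX3CL1. The data are lists of ChIP-seq peaks from the established cell line 786-O, derived from a human renal carcinoma of the clear cell type. Peaks were taken as members when their summit lay in the hg19 interval chr4:74550000-75000000, which holds the 5 CXCL genes, or within 25 kb of the start of CCL2, CCL20 or CX3CL1. This gave 77 peaks of the 60345 in all 5 lists. They comprised 7 of the 1813 p65 peaks in the list labelled siTEAD4 against 22 of 15465 in the control list, 7 of the 1649 p65 peaks in the XMU-MP-1 list against 20 of 17958 in the vehicle list, and 21 of 23460 TEAD peaks. Joined where they overlapped by at least 1 bp, the 77 peaks formed 28 sites, 22 of them in the chromosome 4 interval.

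Each list comes from 1 library of cells: p65 immunoprecipitates of cells given an siRNA (siTEAD4 in the title, siTEAD in the treatment label), of control cells with no treatment label, of cells given XMU-MP-1 and of cells given vehicle, and a TEAD immunoprecipitate of XMU-MP-1 cells. The labels give no dose or duration, and name neither the TEAD protein that was precipitated nor any control siRNA for the control cells. Of the 9 libraries, 4 are inputs, whose own files are not analysed here. The identifiers inside the list labelled siTEAD4 read p65_Vert, a name found in no label, so its treatment rests on the sample label. With 1 library per condition differences between conditions cannot be checked against replicates, no p-value is given, and each ratio compares libraries. Both treated p65 lists are far shorter than their references, and all peak counts below are read against that.

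p65 (RELA) is the subunit of the common NF-κB dimer that carries a transactivation domain. It binds κB sites, near-palindromes of the GGGAATTTCC type, and enters the nucleus when the inhibitor IκB is degraded. TEAD proteins are the DNA-binding partners of YAP and TAZ, and XMU-MP-1 inhibits the Hippo kinases MST1 and MST2, which restrain YAP. CXCL8 (interleukin-8), CXCL1, CXCL2, CXCL3 and CXCL5 recruit neutrophils through the receptor CXCR2. CCL2 recruits monocytes through CCR2, CCL20 recruits lymphocytes and dendritic cells through CCR6, and CX3CL1 (fractalkine) is a membrane-anchored ligand of CX3CR1.

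The promoters of the 5 CXCL genes share 1 κB element, shown here because a p65 peak lay over each of these gene starts. RefSeq promoter windows (250 bases before to 50 after the gene start, GRCh38.p14) were found for 6 of the 8 genes, and none was found for CCL2 or CX3CL1. The stretches below run from base -130 to base -41 of each gene start, 5′ to 3′ on the gene's strand. In the 5 CXCL genes the capitals mark the match to the NF-κB core GGAANTTCC. In CCL20, which has no core match, they mark overlapping matches to the general κB decamer (3 G, any 5 bases, 2 C).
CXCL8: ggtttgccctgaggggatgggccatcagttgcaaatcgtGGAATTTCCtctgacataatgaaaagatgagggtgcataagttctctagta
CXCL1: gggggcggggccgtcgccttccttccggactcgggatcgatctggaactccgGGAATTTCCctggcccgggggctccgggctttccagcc
CXCL5: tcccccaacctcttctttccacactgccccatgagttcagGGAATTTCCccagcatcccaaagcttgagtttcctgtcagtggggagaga
CXCL3: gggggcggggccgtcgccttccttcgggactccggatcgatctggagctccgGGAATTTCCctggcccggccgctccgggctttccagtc
CXCL2: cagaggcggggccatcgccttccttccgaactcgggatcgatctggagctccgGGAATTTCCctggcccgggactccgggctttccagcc
CCL20: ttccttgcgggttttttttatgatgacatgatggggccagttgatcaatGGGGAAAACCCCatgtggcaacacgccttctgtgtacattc

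In GRCh38.p14 these stretches are chr4:73740439-73740528 on the plus strand for CXCL8, chr4:73869263-73869352 on the plus strand for CXCL1, chr4:73998718-73998807 on the minus strand for CXCL5, chr4:74038730-74038819 on the minus strand for CXCL3, chr4:74099236-74099325 on the minus strand for CXCL2 and chr2:227813712-227813801 on the plus strand for CCL20. The core begins at base -91 in CXCL8, -90 in CXCL5, -78 in CXCL1 and CXCL3, and -77 in CXCL2. Searched on both strands, GGAANTTCC was present in 0.967% of 27305 RefSeq promoters (1 per gene), whereas the general decamer was present in 57.99% and so separates little. In CXCL1, CXCL5, CXCL3 and CXCL2, but not in CXCL8, the core lies inside a match to the general decamer. The TEAD hexamer GGAATG, present in 14.05% of promoters, was found in the CCL20 window alone among the 6, once, from base -45 to -40 on the reverse strand (CATTCC). The AP-1 form TGANTCA was found once, in CXCL8, at base -137 to -131, and occurs in 7.76% of promoters. TATAAA, present in 12.0% of promoters, was found in CXCL8 and CCL20. The promoters of CXCL1 and CXCL3 were 82.5% identical over 308 alignment columns, and CXCL2 was 71.9% identical to CXCL1 and 73.8% to CXCL3. Whether reads from these starts can be told apart was not tested. How reads with several matches were treated is not given in the sources used here. A match is a description of letters, not a measured site.

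The gene starts set a gradation across the lists. A peak counts as at a start when its summit was within 1 kb of it. CXCL8 had a start peak in all 5 lists. CXCL1 had one in 4 lists, with none in the list labelled siTEAD4. CXCL5 had one in 3 p65 lists, with neither an XMU-MP-1 p65 nor a TEAD peak. CXCL3 and CXCL2 were alike in all 5 lists, with control, vehicle and TEAD peaks and nothing in either treated p65 list. At the CX3CL1 start a control p65 and a TEAD peak were called, at CCL2 a TEAD peak without p65, and at CCL20 none.

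**Figure D1:**
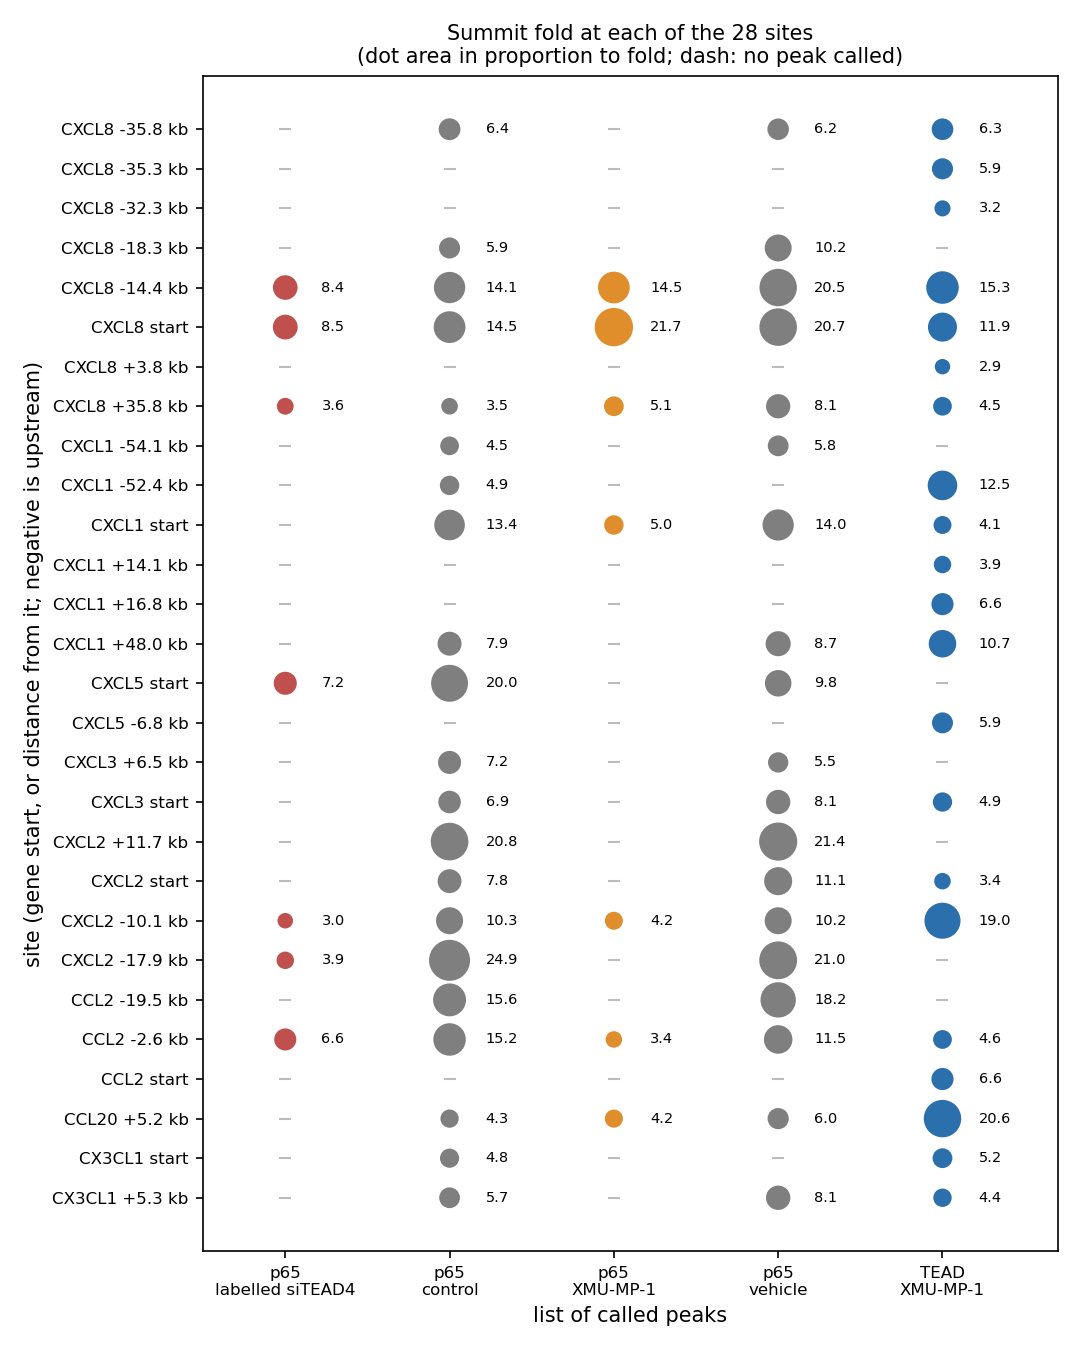
Fold of the summit over its local background at each of the 28 sites (rows) in each of the 5 lists (columns). Dot area is in proportion to the fold printed beside it, and a dash marks a site with no called peak. The CXCL8 start and the site 14.4 kb upstream of it are called in all columns, with p65 folds of 8.35 to 21.7.

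At the CXCL8 start (hg19 chr4:74605932-74606580, all lists joined) the p65 fold was 8.51 in the list labelled siTEAD4 against 14.5 in the control list. It was 21.7 in the XMU-MP-1 list against 20.7 in the vehicle list, and the TEAD fold was 11.9. Each fold, as the authors deposited it, is the summit over the local background used for its own list. Whether that background came from an input library is not given. Folds of different lists therefore show no change by themselves. All 4 p65 summits lay 6 to 30 bp upstream of the annotated start and the TEAD summit 40 bp downstream, with gene starts known to about 165 bp. The peak stood at rank 108 of 1813 by q-value in the list labelled siTEAD4, 831 of 15465 for control, 19 of 1649 for XMU-MP-1 and 297 of 17958 for vehicle. In lists of such different lengths these ranks place the peak within its list and show no change.

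The fragments behind each peak can be recovered from its fold and p-value, and they allow libraries to be set side by side at a given depth. At the CXCL8 start 68 fragments (95% Poisson interval 52.8 to 86.2) covered the summit in the library labelled siTEAD4, against 96 (77.8 to 117) in the control library. In the XMU-MP-1 library there were 101 (82.3 to 123), against 76 (59.9 to 95.1) in the vehicle library. The background gave a depth for the library labelled siTEAD4 of 1.06 times the control, and for XMU-MP-1 of 1.60 times the vehicle. Scaled by these depths, the ratio of fragments at the CXCL8 start was 0.666 (0.481 to 0.918) for siTEAD4-labelled over control and 0.832 (0.612 to 1.14) for XMU-MP-1 over vehicle. The intervals cover counting error only, and treat the depths as known.

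Over all 1746 peaks labelled siTEAD4 with a control peak the median scaled ratio was 0.345, with a 5th to 95th percentile range of 0.196 to 0.680. Over the 1578 XMU-MP-1 peaks with a vehicle peak the median was 0.488 (0.259 to 1.02). Pairs exist only where the treated list had a peak, at 11.2% of control peaks and 8.77% of vehicle peaks. The medians therefore describe kept peaks and not the change over a whole list. Among these kept peaks the CXCL8 start lay above 94.6% of siTEAD4-labelled pairs and 86.8% of XMU-MP-1 pairs. How far libraries with neither siTEAD4 nor XMU-MP-1 differ is shown by vehicle over control: over 12303 pairs the median was 1.04 (0.714 to 1.47). The CXCL8 start stood high there too, at 1.45 (1.06 to 1.98), above 94.0% of pairs, so its control count was low next to its vehicle count. Its position among the siTEAD4-labelled pairs rests on that control count, and whether the ratio would hold in a second control library was not tested.

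The site 14.4 kb upstream of CXCL8 (hg19 chr4:74591384-74592167) was also called in all 5 lists. It had a p65 fold of 8.35 in the list labelled siTEAD4 against 14.1 in the control list, 14.5 with XMU-MP-1 against 20.5 with vehicle, and a TEAD fold of 15.3. It was covered by 57 fragments in the library labelled siTEAD4 against 142 in the control, a scaled ratio of 0.377 (0.273 to 0.517). With XMU-MP-1 91 fragments were found, against 96 with vehicle, a ratio of 0.594 (0.441 to 0.799). Both ratios lay near the medians of the pairs, at 60.0% and 66.9% of pairs. Its 4 p65 summits fell within 11 bp of each other, and 67 to 78 bp from the TEAD summit.

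A weak site 35.8 kb downstream of CXCL8 was called in all 5 lists as well. Its p65 fold was 3.57 in the list labelled siTEAD4 against 3.49 in the control list, and 5.14 with XMU-MP-1 against 8.07 with vehicle, and its TEAD fold was 4.54. The control peak was the weakest of all 22 member control peaks by fold. Of all control peaks with a fold under 4, 2.41% had a peak labelled siTEAD4. Its scaled ratios, 0.705 (0.381 to 1.29) for siTEAD4-labelled over control and 0.712 (0.385 to 1.32) for XMU-MP-1 over vehicle, rest on 21 to 28 fragments each and have wide intervals.

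Other sites around CXCL8 were called less widely. A site 18.3 kb upstream had a control p65 fold of 5.94 and a vehicle p65 fold of 10.2, with no other peak. One 35.8 kb upstream had a control fold of 6.41 and a vehicle fold of 6.23, beside a TEAD fold of 6.29. TEAD alone was called 35.3 and 32.3 kb upstream and 3.8 kb downstream, with folds of 5.95, 3.23 and 2.91. All 3 were below the median of the TEAD list, 6.27.

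The CXCL1 start (hg19 chr4:74734817-74735305) had no peak in the list labelled siTEAD4, against a fold of 13.4 in the control list. With XMU-MP-1 the fold was 4.95, against 13.97 with vehicle, and TEAD had a fold of 4.14. The XMU-MP-1 peak rested on 24 fragments (15.4 to 35.7) against 43 (31.1 to 57.9) with vehicle, a scaled ratio of 0.350 (0.203 to 0.589), above 19.9% of all pairs. Among all control peaks with a fold of 10 or more, 43.9% had a peak labelled siTEAD4. The share was 61.1% among those that also had a TEAD peak, as the CXCL1 start did. Missing this peak was therefore not rare for peaks of its strength, though most such peaks with TEAD were kept.

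RefSeq lists CXCL6 and PF4V1 between CXCL8 and CXCL1, and PF4 and PPBP between CXCL1 and CXCL5. Sites in these stretches were mostly TEAD sites or weak p65 sites. TEAD had a fold of 12.5 at 52.4 kb upstream of CXCL1, beside a control p65 fold of 4.95 and no other p65 peak. At 48.0 kb downstream of CXCL1 TEAD had 10.7, beside a control p65 fold of 7.88 and a vehicle p65 fold of 8.68. TEAD alone was called 14.1 and 16.8 kb downstream of CXCL1, with folds of 3.89 and 6.60. A site 54.1 kb upstream of CXCL1 had p65 in the control (4.54) and vehicle (5.77) lists alone. Neither treated p65 list held any of these 5 sites. The weak site 35.8 kb downstream of CXCL8, described above and called in all 5 lists, also lies between CXCL8 and CXCL1.

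At the CXCL5 start (hg19 chr4:74864254-74864738) the pattern was the reverse of CXCL1. The p65 fold was 7.24 in the list labelled siTEAD4 against 19.95 in the control list, and no peak was called with XMU-MP-1, against a fold of 9.81 with vehicle. TEAD had no peak there, and its nearest was 6.8 kb upstream with a fold of 5.86. The peak labelled siTEAD4 had 32 fragments (21.9 to 45.2) against 99 (80.5 to 121) in the control, a scaled ratio of 0.304 (0.197 to 0.457), above 36.3% of pairs. No test of the contrast between CXCL1 and CXCL5 is possible with 1 library each, and in each case the missing peak means only that none passed the authors' threshold.

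CXCL3 and CXCL2, the paralogues of CXCL1, had weaker start peaks. At the CXCL3 start (hg19 chr4:74904226-74904841) the control p65 fold was 6.89, the vehicle p65 fold 8.11 and the TEAD fold 4.88. At the CXCL2 start (hg19 chr4:74964626-74965220) these folds were 7.81, 11.1 and 3.43 for control, vehicle and TEAD. A further site 6.5 kb downstream of the CXCL3 start had a control p65 fold of 7.23, a vehicle p65 fold of 5.47 and no TEAD peak. None of these had a peak in a treated p65 list.

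By fold, the strongest p65 sites of the interval in the control list lay around CXCL2 rather than at a start. The site 17.9 kb upstream of CXCL2 (hg19 chr4:74982590-74983126) had the highest member fold there, 24.9, and 21.0 in the vehicle list. In the list labelled siTEAD4 its fold was 3.89, and no XMU-MP-1 or TEAD peak was called. It was covered by 17 fragments (9.90 to 27.2) in the library labelled siTEAD4 against 143 (121 to 168) in the control library. The scaled ratio was 0.112 (0.0633 to 0.185), above 0.229% of all 1746 pairs, while vehicle over control was 0.972 (0.726 to 1.29). This is the lowest siTEAD4-labelled over control ratio among the 7 member sites called in both lists. Member sites with no peak labelled siTEAD4 have no such ratio and could be lower. Its interval does not meet that of the CXCL8 start, but both sites were picked from these 7 and the intervals cover counting error only.

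The site 11.7 kb downstream of the CXCL2 start (hg19 chr4:74953118-74953533) was nearly as strong, with a control p65 fold of 20.8 and a vehicle p65 fold of 21.4. It was in neither treated p65 list and had no TEAD peak. Its control and vehicle summits had 106 and 57 fragments, a scaled vehicle over control ratio of 0.983 (0.700 to 1.37). The site 10.1 kb upstream of CXCL2 (hg19 chr4:74974756-74976215) was called in all 5 lists. Its p65 fold was 2.96 in the list labelled siTEAD4 against 10.3 in the control list, and 4.17 with XMU-MP-1 against 10.2 with vehicle. TEAD had a fold of 19.0 there, over a peak of 1371 bp. Scaled ratios were 0.416 (0.243 to 0.692) and 0.391 (0.212 to 0.706), inside the ranges of all pairs.

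**Figure D2:**
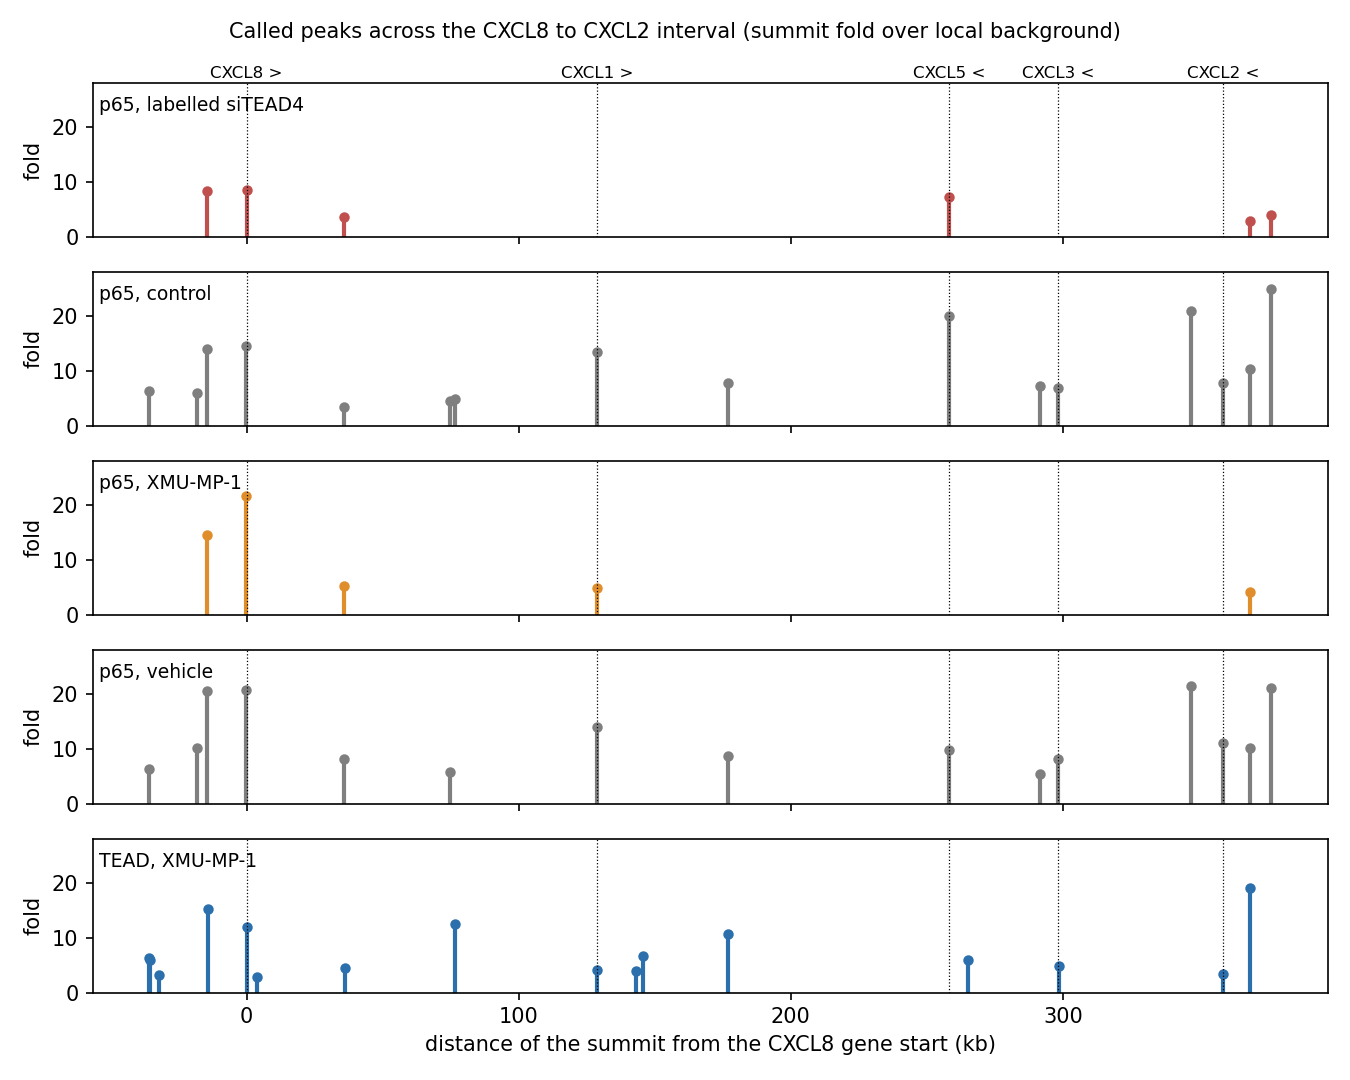
Summit fold over local background (vertical axes, the same in all panels) against the distance of the summit from the CXCL8 gene start in kb, for the 5 lists. Dotted lines mark gene starts, with > for genes on the plus and < for genes on the minus strand. At the right, around CXCL2, the tallest stems are 24.9 for control and 3.89 in the panel labelled siTEAD4, both 17.9 kb upstream of CXCL2. The tallest vehicle stem there, 21.4, is the site 11.7 kb downstream, which has no XMU-MP-1 peak. The XMU-MP-1 stem of 4.17 is the site 10.1 kb upstream, where the vehicle fold is 10.2. Folds of different panels show no change by themselves. CXCL8 has tall stems in every panel.

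CCL2 had no p65 peak at its start in any list, only a TEAD peak with its summit 338 bp upstream and a fold of 6.62. p65 was called 2.6 kb upstream instead (hg19 chr17:32579469-32580048), and CCL2 is known to have an upstream enhancer with κB sites. The fold was 6.59 in the list labelled siTEAD4 against 15.2 in the control list, 3.43 with XMU-MP-1 against 11.5 with vehicle, and 4.58 for TEAD. Scaled ratios were 0.260 (0.152 to 0.426) for siTEAD4-labelled over control, from 21 and 76 fragments, and 0.382 (0.223 to 0.643) for XMU-MP-1 over vehicle, from 25 and 41. A stronger site 19.5 kb upstream (hg19 chr17:32562439-32563090) had a control p65 fold of 15.6 and a vehicle p65 fold of 18.2, with no TEAD peak and no peak in either treated list. RefSeq lists CCL7 as the next gene after CCL2, on its far side from these sites.

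CCL20 was a TEAD locus in these lists. Its window held 1 site, about 5 kb downstream of the start (hg19 chr2:228682587-228683824), with the highest TEAD fold of all members, 20.6, over a peak of 1219 bp. p65 was weak there, with a fold of 4.21 in the XMU-MP-1 list against 4.30 and 6.01 at the 2 vehicle peaks, and 4.30 in the control list. No peak labelled siTEAD4 was called. The XMU-MP-1 over vehicle ratio was 1.14 (0.613 to 2.20), above 96.8% of pairs, from 31 and 17 fragments at the summits with the most fragments. These summits lay 4548 bp (XMU-MP-1) and 4152 bp (vehicle) downstream of the start, and the other vehicle summit 5158 bp. The ratio therefore compares different positions within the site. Local background was 6.39 fragments at the XMU-MP-1 summit and 3.19 at that vehicle summit, and was not subtracted.

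CX3CL1 had 2 sites. At its start, 623 bp downstream, p65 was called in the control list (fold 4.80) and not in the vehicle list, beside a TEAD fold of 5.16. The site 5.3 kb downstream (hg19 chr16:57411118-57412236) had p65 folds of 5.72 and 3.99 at 2 control peaks, 8.15 at 1 vehicle peak and a TEAD fold of 4.37. Neither treated p65 list had a peak in this window.

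A control or vehicle peak counts as kept when it overlaps a peak of the treated list by at least 1 bp. Of the 22 control member peaks 7 were kept in the list labelled siTEAD4 (31.8%, 95% exact interval 13.9 to 54.9), and the share over all control peaks was 11.2%. Of the 20 vehicle member peaks 8 were also XMU-MP-1 peaks (40%, 19.1 to 63.9), against 8.77% over all vehicle peaks. The single XMU-MP-1 peak at CCL20 overlapped 2 vehicle peaks, so these 8 vehicle peaks matched 7 XMU-MP-1 peaks. With peaks of −log10 q of at least 10 on both sides, 3 of 16 control members (18.8%) were kept, beside 12.7% over the list, and 2 of 15 vehicle members (13.3%), beside 10.3%. The intervals treat peaks as independent, which neighbours in 1 locus are not. Control and vehicle members were mostly stronger than their lists: 14 of 22 control and 17 of 20 vehicle members had a fold above the list median. In the other lists this held for 4 of 7 members labelled siTEAD4, 2 of 7 XMU-MP-1 members and 9 of 21 TEAD members. Kept peaks are mostly strong ones. Among peaks with a fold of 10 or more, 6 of 9 control members were kept in the list labelled siTEAD4, beside 43.9% over that list, and 5 of 10 vehicle members in the XMU-MP-1 list, beside 35.9%. With so few members these counts do not set the chemokine peaks apart from other strong peaks.

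In all, 5 of 22 control members were called in all 4 p65 lists, beside 7.6% over the control list, and all 5 had a TEAD peak, beside 76.9% over such peaks of the list.

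The control and vehicle lists coincided closely at these genes. All 20 vehicle member peaks had a control peak (68.5% over the vehicle list), and 20 of 22 control members had a vehicle peak (79.5% over the control list). Folds of vehicle over control ranged from 0.492 at the CXCL5 start to 2.32 at the site 35.8 kb downstream of CXCL8, and the vehicle fold was higher at 13 of the 19 common sites. Scaled fragment ratios for the same 19 sites ran from 0.840 to 1.66, a narrower range.

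**Figure D3:**
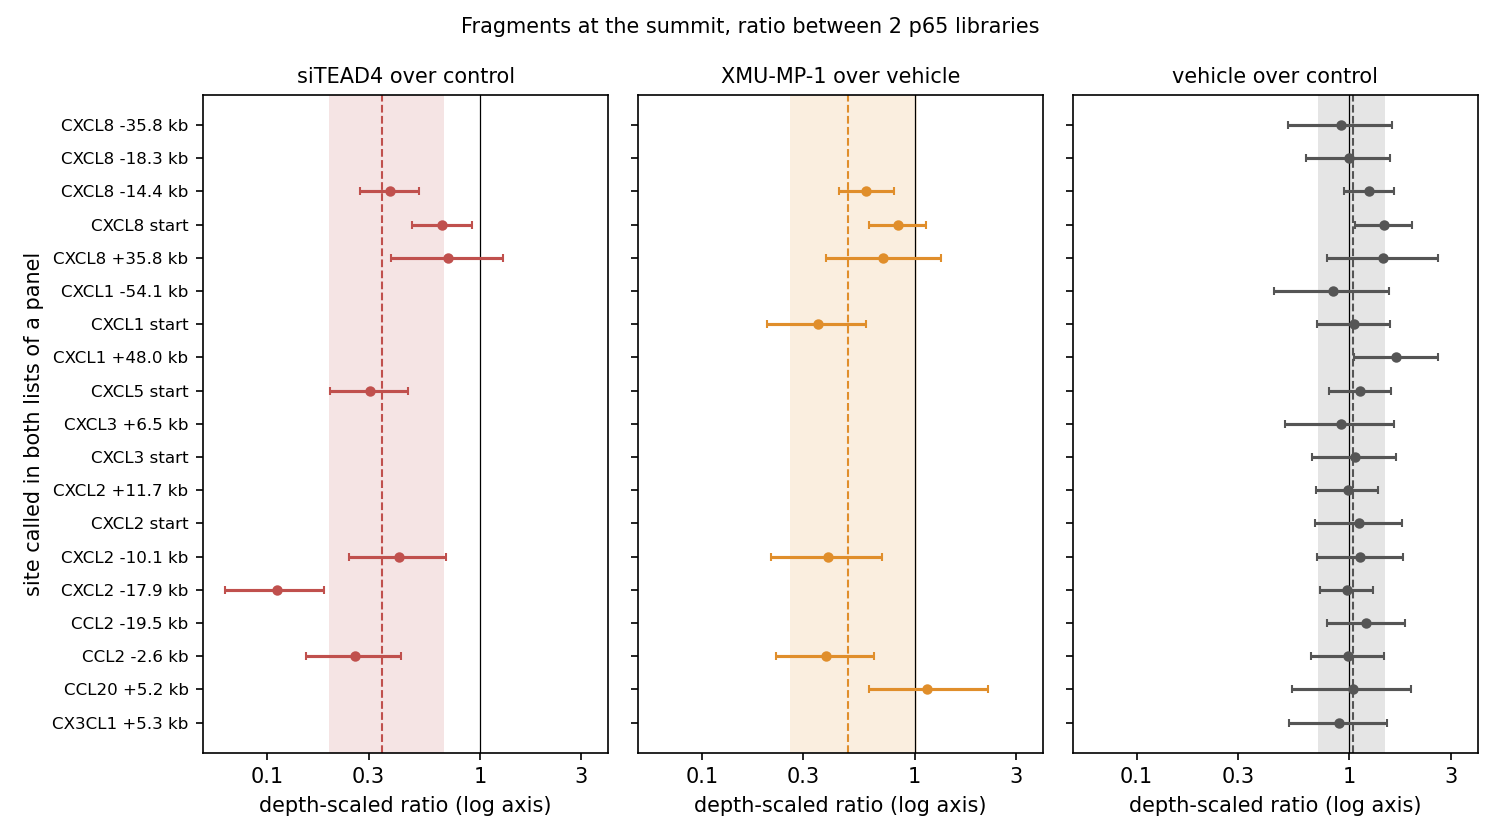
Ratio of fragments at the summit between 2 p65 libraries, scaled by depth, on a log axis, for each site called in both lists of a panel. Points are ratios with 95% counting intervals, the dashed line is the median and the band the 5th to 95th percentile over all pairs of peaks in the 2 lists. The CXCL8 start stands at 0.666 and 0.832 in the treated panels, and the site 17.9 kb upstream of CXCL2 at 0.112.

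The 19 sites common to control and vehicle can be sorted by the presence of a TEAD peak, although each group is small. A TEAD peak was at 12 of them, of which 5 were in both treated p65 lists, 2 in the XMU-MP-1 list alone (the CXCL1 start and the CCL20 site) and 5 in neither. Of the 7 without TEAD, none was in the XMU-MP-1 list, 2 were in the list labelled siTEAD4 (the CXCL5 start and the site 17.9 kb upstream of CXCL2) and 5 were in neither. Sites were not joined over the whole lists. These site counts therefore have no list share beside them and are not read as particular to the chemokine genes. Counted as peaks, all 7 member XMU-MP-1 p65 peaks had a TEAD peak, beside 75.2% over that list, and 5 of 7 members labelled siTEAD4, beside 71.6%. The XMU-MP-1 count was 6 of 7 with summits within 200 bp, beside 66.1% over the list, and 3 of 5 with peaks of −log10 q of at least 5, beside 68.6%. Of the reference members, 15 of 22 control peaks (47.4% over the list) and 13 of 20 vehicle peaks (45.6%) had one. With peaks of −log10 q of at least 10 the vehicle count was 4 of 15, beside 31% over the list.

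The sites with TEAD were not the stronger ones. The median control fold was 7.84 at the 12 sites with TEAD and 15.6 at the 7 without, and the median vehicle fold was 9.44 and 10.2. Of vehicle member peaks with a fold of 10 or more, 5 of 6 with TEAD and 0 of 4 without were found again under XMU-MP-1. Over the whole vehicle list these shares were 53.5% and 18.7%. The 95% exact intervals of the member shares, 35.9 to 99.6% with TEAD and 0 to 60.2% without, overlapped. For the list labelled siTEAD4 the counts with and without TEAD were 4 of 5 and 2 of 4 control members, beside 61.1% and 27.4% over the list. TEAD was profiled here in XMU-MP-1 cells, and its presence in the other conditions was not tested.

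At the 12 sites with both a TEAD and a vehicle p65 peak the summits lay 69 bp apart at the median, measured from the vehicle peak with the highest fold. The distance was 404 bp at CX3CL1 and 690 bp at CCL20, where the nearer of the 2 vehicle summits lay 316 bp away, and 4 bp at the nearest site. From the other side, 12 of the 21 TEAD member peaks had a vehicle p65 peak (34.5% over the TEAD list) and 7 had an XMU-MP-1 p65 peak (5.26%). The 7 sites with TEAD alone had folds of 2.91 to 6.62. Where p65 was also called, TEAD folds ran from 3.43 at the CXCL2 start to 20.6 at the CCL20 site. The 2 highest were those at the CCL20 site and, at 19.0, 10.1 kb upstream of CXCL2. The ranges with and without p65 overlapped.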

How the data were processed

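The build was hg19, and reads were handled with fastp, Bowtie2 2.4.5 and MACS2, per the submitters' processing notes. The input behind each list and the settings of MACS2 were not given in the sources used here. The authors deposited 1 narrowPeak list per immunoprecipitate, with a fold enrichment (a ratio over local background) for each peak. The −log10 q-value and the −log10 p-value of each peak are also the authors' own. A whole-number score per peak, deposited by the authors, was not used. No read totals come with the lists.

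Peaks were chosen by summit position, and the members and lists were chosen with earlier results of these data known. All 8 genes were named, and every site in their windows is described. Starts of the 5 CXCL genes in hg19 were entered by hand from general knowledge. Their spacing differs from the RefSeq table (GRCh38.p14, used for names and gene order) by at most 165 bp, so distances carry an error of that size. Other chemokine genes were not counted, because no annotation in hg19 was used here.

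Peaks overlapping by at least 1 bp were taken as shared, with exact Clopper-Pearson intervals. For each peak the whole number of fragments at the summit was solved from the fold, (pileup + 1)/(background + 1), and the Poisson p-value, to within 0.005 of the deposited −log10 p-value. This solved at least 99.96% of peaks in each list. Pileups were in steps of 0.587 in the control and 0.783 in the XMU-MP-1 list, and of 1 in the others. Relative depth was the 1st percentile of the background per bp of the shortest peak. Local background differs between sites and was not subtracted from the ratios. Promoters were aligned with Biopython 1.88. Python 3.11.15, numpy 2.4.6, pandas 2.3.3 and scipy 1.17.1 were used, and the code was tested on simulated data. Alternatives were other overlap rules, q limits and windows.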

Additional observations from a re-analysis of the deposited data

How the results depend on the processing

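Of 56 values recomputed with other overlap rules, q limits or windows, 50 stayed within the 95% interval of the reported share or within 1.5 times the reported count, and 6 moved beyond it. All 6 arose when peaks under a −log10 q of 5 or 10 were left out, which removes weak peaks. At 10, 13.3% of vehicle member peaks (2 of 15, both around CXCL8) were also XMU-MP-1 peaks, beside 10.3% over the list. A TEAD peak was at 26.7% of them, below the 31% over the list, whereas the main share was above it. The member peaks left at 10 numbered 3 labelled siTEAD4, 2 of XMU-MP-1 p65 and 8 of TEAD. At 5, the list labelled siTEAD4 held 4. The intervals of the shares are wide because members are few, so staying within one is a weak check. The share of control members kept in the list labelled siTEAD4 stayed within, yet fell from 31.8% to 18.8% at 10, beside 12.7% over the list. The share of XMU-MP-1 members with a TEAD peak also stayed within, yet fell from 100% to 60% at 5, beside 68.6%. No paired analysis was possible because there is only 1 library of each condition. Gene lists beyond the 8 genes were not run. A missing peak is not absence of p65: 5% of peaks labelled siTEAD4 had 17 or fewer fragments at the summit, and 5% of XMU-MP-1 peaks 20 or fewer.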

Other observations

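The fold and the fragments at the CXCL5 start differ in what they show between control and vehicle. The vehicle fold of 9.81 was 0.492 times the control fold of 19.95, while the depth-scaled ratio of fragments was 1.13 (0.805 to 1.57). The local background at the summit, in units of p65 fragments, was 5.32 for the vehicle peak and 3.34 for the control peak. The vehicle p65 library had 0.547 times the depth of the control. Whether these backgrounds were read from input libraries is not given in the sources used here. At the CXCL2 start the order was the other way, with a background of 1.89 for the vehicle and 5.04 for the control peak in the same units.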
